A study of Mus musculus with 10 samples.

Results

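The 4 adult hemoglobin genes Hbb-bs, Hbb-bt, Hba-a1 and Hba-a2 were chosen by name as a measure of red cell RNA, out of 31053 genes in the deposited matrices of a single-cell RNA-seq study of mouse breast tumors. Their unique molecular identifiers (UMIs, 1 per captured RNA molecule) were counted in 3 sets of barcodes per library. Kept barcodes, called cells here, had 200 to 7000 genes detected and at most 10% of their UMIs from mitochondrial (mt-) genes. Ambient barcodes had 1 to 50 UMIs, and the remaining barcodes had over 50 UMIs but lay outside the limits on cells. The barcodes were thus sorted on their total UMIs, genes and mitochondrial share, and the hemoglobin UMIs of a barcode counted in its own total.

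E0771 cells, a mouse mammary carcinoma line, were grown as tumors in mammary fat pad 4 of female C57BL/6 mice and harvested on day 21. Wild-type (WT) mice were compared with EC-AGO1-KO (KO) littermates, in which a Cdh5-cre transgene, driven by an endothelial promoter, acts on a floxed Ago1 gene. All mice received the tumor at 16 weeks of age, and the injected line was the same in both genotypes. Each genotype gave 1 library in batch 1. In batch 2 there were 4 WT libraries (WT 1, 3, 4 and 5) and 4 KO libraries (KO 1, 2+3, 4 and 5+6), of which KO 2+3 and KO 5+6 each pooled 2 tumors, so that 5 WT and 7 KO tumors were sampled. Every tumor was dissociated with enzymes and treated with a buffer that lyses red cells before capture. In summed counts, fewer red cells and less RNA per red cell cannot be told apart.

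Hemoglobin is assembled from pairs of alpha and beta globin chains, each holding a heme group that binds oxygen. Adult mice make the beta chains from Hbb-bs and Hbb-bt and the alpha chains from Hba-a1 and Hba-a2, in erythroid cells of the bone marrow and spleen. Circulating mouse red cells have no nucleus, and the young ones among them, the reticulocytes, still hold globin mRNA, so that blood in a dissected tissue brings these RNAs with it.

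In the gene annotation of build GRCm38, Hbb-bs lies at chr7:103826534-103828096 and Hbb-bt at chr7:103812524-103813996, both on the minus strand and 12537 bases apart. Hba-a1 lies at chr11:32283511-32284465 and Hba-a2 at chr11:32296489-32297298, both on the plus strand and 12023 bases apart. Each of the 4 genes has 3 exons, and their longest annotated transcripts are 554 to 703 bases long. The copies of a pair share much of their sequence. Of the 90-base windows of the Hba-a1 transcript, 58.85% occur letter for letter in Hba-a2, and 63.27% of those of Hbb-bs occur in Hbb-bt, so that the split of UMIs within a pair is uncertain. None of the Hbb-bs windows occurs in Hba-a1.

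The promoters are shown because the 4 genes were detected together in nearly all barcodes rich in hemoglobin. Stretches of 30 bases were taken from the 250 bases before each gene start (RefSeq, GRCm38.p6, gene strand, all 4 genes matched), around 3 letter strings printed in capitals. The RefSeq starts differ from those of the gene annotation given above, so that some stretches lie within the gene spans printed there. The string ATATAA is known as the core of a TATA element. The box with the letters CCAAT is a general promoter element, and a site spelled GATAAG is of the kind that erythroid GATA factors read.
Hbb-bs, chr7:103827941-103827970: ccagggcagagcATATAAggtgaggtagga
Hbb-bt, chr7:103813935-103813964: ccagcattgggtATATAAagctgagcaggg
Hba-a1, chr11:32283632-32283661: cccttggagggcATATAAgtgctacttgct
Hbb-bs, chr7:103827987-103828016: ccctggtaagggCCAATctgctcacacagg
Hbb-bt, chr7:103813981-103814010: ccctggcattggCCAATctgctcagagagg
Hba-a1, chr11:32283572-32283601: agcacaaaccagCCAATgagaactgctcca
Hbb-bs, chr7:103828120-103828149: gttctctgcacaGATAAGgacaaacattat
Hbb-bt, chr7:103814110-103814139: attagctgcaagGATAAGaacagacactac
Hba-a1, chr11:32283478-32283507: gtccgggcaactGATAAGgattccctgcac
The 3 stretches of Hba-a2 have the same letters as those of Hba-a1. The string CACCC, the core of the sites of the erythroid factor Klf1, was also searched, and all 4 promoters hold all 4 strings. Among 32851 promoters of the same length, read on both strands, 9.099% held the TATA string and 33.85% the CCAAT box. The string for Klf1 was in 52.01% and the GATA string in 6.548%, and 46 promoters (0.14%) held all 4. None of these strings overlaps another in the members. A match of letters describes the sequence and is not evidence of a bound factor.

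Levels are given as CPM (counts-per-million), a gene's share of all UMIs in the same set of barcodes. The libraries held 8323896 to 10591577 UMIs in all. The limits kept 1194 and 968 cells with a median of 4049 and 3862 UMIs in the batch 1 WT and KO libraries, against 6212 to 10190 cells with medians of 595 to 1142 UMIs in batch 2, or 65298 cells in total. Between 0 and 28 kept barcode sequences were shared by any pair of libraries, 532 sequences in all. Ago1, the targeted gene, was deleted in endothelial cells only, and its level over all cells was 7.06 and 6.45 CPM in WT and KO of batch 1 and 4.32 to 5.23 and 4.45 to 6.92 CPM in WT and KO of batch 2 (log2 fold change 0.07, edgeR adjusted p = 0.95). UMIs of 8 endothelial markers (Cdh5, Pecam1, Vwf, Emcn, Kdr, Egfl7, Cd34 and Cldn5) summed to 84.3 to 86.2 CPM in the cells of batch 1 and 25.3 to 50.1 CPM in batch 2, with none of the 8 at 0 in the series.

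Hemoglobin RNA was concentrated in batch 1. Of 33779 hemoglobin UMIs in the series, 32857 (97.27%) lay in the 2 libraries of batch 1, and 69.354% lay in the WT library of that batch alone. Over all barcodes of batch 1 the 4 genes were at 2604 CPM in WT and at 1133 CPM in KO. In batch 2 the WT libraries held 8.03 (WT 1), 17.5 (WT 3), 8.53 (WT 4) and 6.83 (WT 5) CPM, and the KO libraries held 4.55 (KO 1), 10.1 (KO 2+3), 12.7 (KO 4) and 30.1 (KO 5+6) CPM. Every library of batch 2 was thus far below both libraries of batch 1, and the WT and KO libraries of batch 2 overlapped.

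The UMIs also sat in different barcodes in the 2 batches. In batch 1, 82.378% of the hemoglobin UMIs fell in the barcodes of over 50 UMIs that failed the limits on cells, 11.224% in ambient barcodes and 6.3974% in cells. In batch 2, 70.065% fell in ambient barcodes, 20.39% in the barcodes outside the limits and 9.5445% in cells. Failing the minimum of 200 genes alone accounted for 99.43% of the UMIs outside the limits in the batch 1 WT library and 97.874% in the KO library. Mature red cells are known to carry few kinds of RNA.

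**Figure D1:**
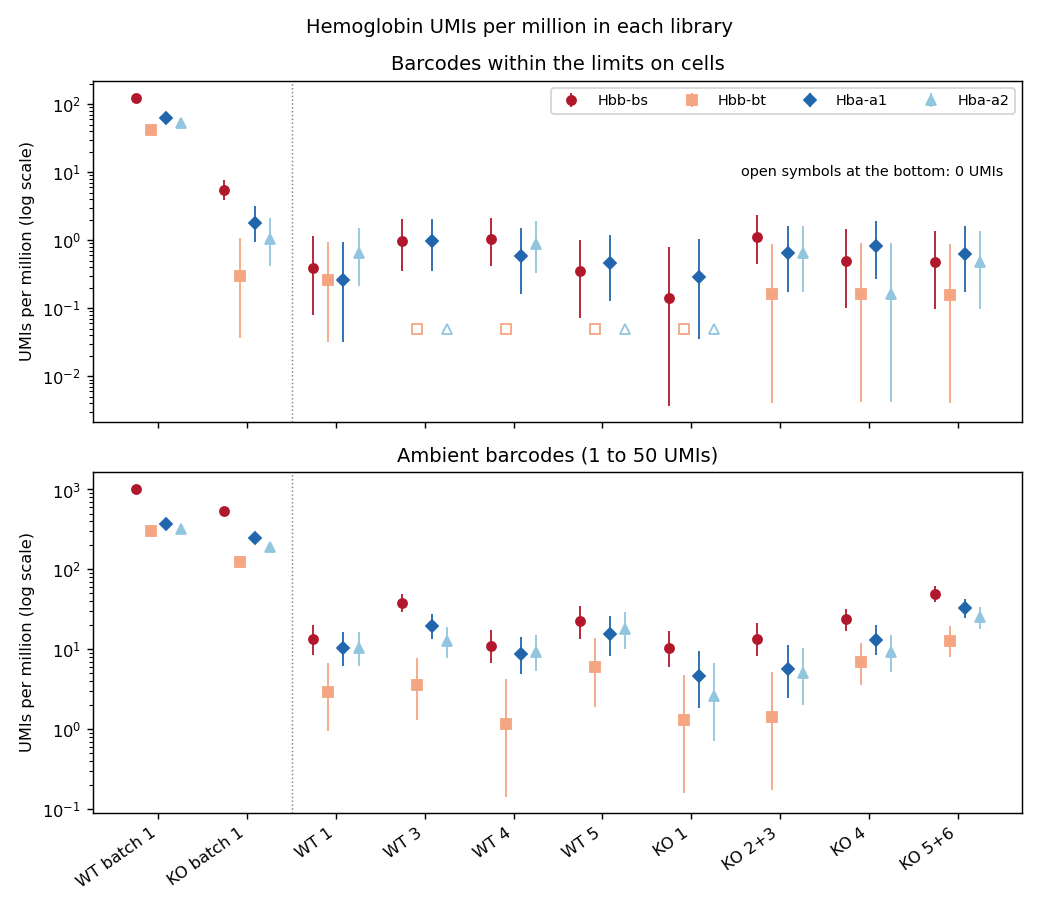
CPM of each hemoglobin gene in cells and in ambient barcodes of the 10 libraries on a log axis, with 95% exact Poisson intervals. Both batch 1 libraries lie above every batch 2 library in ambient barcodes, and in cells the batch 1 WT library stands apart, with Hbb-bs at 122 CPM.

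Hbb-bs, the most abundant of the 4 genes in batch 1, was taken first among the beta chains. In ambient barcodes its level was 1002 CPM in the WT library of batch 1 (95% exact Poisson interval 947 to 1060, from 1234 UMIs) and 531 in the KO library (489 to 575, from 600 UMIs). In batch 2 it was 13.3, 38.2, 11.1 and 22.5 CPM in WT 1, 3, 4 and 5 (mean 21.3 ± 12.3, SD, n = 4) and 10.5, 13.6, 23.7 and 49.5 CPM in KO 1, 2+3, 4 and 5+6 (24.3 ± 17.7, SD, n = 4). Intervals cover counting error only, and batch 1 had 1 library per genotype and so no replicate.

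In cells Hbb-bs reached 122 CPM in the WT library of batch 1 (114 to 130, 895 UMIs) and 5.55 CPM in the KO library (3.91 to 7.64, 37 UMIs). In batch 2 the cells of WT 1, 3, 4 and 5 held 3, 6, 7 and 3 UMIs of Hbb-bs in all, and those of KO 1, 2+3, 4 and 5+6 held 1, 7, 3 and 3. These are 0.685 ± 0.364 CPM in WT and 0.560 ± 0.411 in KO (SD, n = 4 each), and the groups overlapped. Many of these counts were at or near the 3 UMIs that a count of 0 allows for.

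Hbb-bt, the other adult beta chain gene, had fewer UMIs than Hbb-bs in the ambient barcodes and in the cells of each library with UMIs of both. Its ambient barcodes held 372 UMIs in WT and 139 in KO of batch 1, and 2 to 6 UMIs in the WT and 2 to 21 UMIs in the KO libraries of batch 2. Cells of the batch 1 WT library held 306 UMIs of Hbb-bt, those of the KO library 2, and no library of batch 2 held more than 2.

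Among the alpha chain genes, Hba-a1 was at 366 CPM in ambient barcodes of the batch 1 WT library (333 to 402) and 248.6 in the KO library (220 to 279). The WT libraries of batch 2 had 10.4, 19.7, 8.75 and 15.4 CPM and the KO libraries 4.598, 5.73, 13.3 and 33.0. Cells held 456 and 12 UMIs of Hba-a1 in the WT and KO libraries of batch 1. In batch 2 they held 2, 6, 4 and 4 UMIs in WT and 2, 4, 5 and 4 in KO. Hba-a2, which encodes the same alpha chain, had 395 and 216 UMIs in the ambient barcodes of batch 1 and 4 to 41 in those of batch 2. Cells of batch 1 held 387 (WT) and 7 (KO) UMIs of Hba-a2, and those of batch 2 held 0 to 6 per library.

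The balance between the chains was counted in batch 1 outside the limits on cells, where most of its hemoglobin lay. Alpha chain UMIs made up 38.5% of the hemoglobin UMIs there in WT (95% exact binomial interval 37.8 to 39.2) and 39.7% in KO (38.6 to 40.8), intervals that overlap. Hbb-bt made up 25.4% of beta chain UMIs in WT (24.6 to 26.2) and 27.7% in KO (26.5 to 29.0), intervals that do not meet, and Hba-a1 made up 56.4% and 57.2% of the alpha chain UMIs. In ambient barcodes the alpha share was 34.5% in the WT (32.6 to 36.4) and 40.2% in the KO library of batch 1 (37.5 to 43.0), and 37.9% (KO 1) to 59.6% (WT 4) in the libraries of batch 2, which rest on 29 to 197 UMIs each. Of the batch 2 libraries, only KO 1 fell between the values of batch 1, and the others lay above both. Summed over libraries, the ambient alpha share was 36.4% in batch 1 (34.9 to 38.0) and 47.8% in batch 2 (43.9 to 51.8). The Hbb-bt share of beta chain UMIs in ambient barcodes was 23.2% and 18.8% in WT and KO of batch 1 and 8.57% to 22.6% in batch 2. The intervals cover counting error only, and most UMIs of batch 1 came from the few barcodes described next, so that they do not measure a difference between genotypes. With 1 library per genotype in batch 1, these shares were not tested.

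The UMIs outside the limits came from a few barcodes that held little but hemoglobin. Barcodes of at least 20 UMIs with 50% or more of them from the 4 genes numbered 26 in WT and 7 in KO of batch 1, 1 each in KO 2+3 and KO 5+6, and 0 in the other 6 libraries. The 26 WT barcodes held 19905 hemoglobin UMIs, 84.966% of the library's total, and the 7 KO barcodes held 7837, or 83.107%. Their median was 844 UMIs and 39.5 genes in WT and 1332 UMIs and 44 genes in KO, and the highest barcodes held 2327 and 2791 hemoglobin UMIs. All 4 genes were detected in the 7 KO barcodes, and in WT Hbb-bs, Hba-a1 and Hba-a2 were detected in 26 of 26 and Hbb-bt in 23 of 26. The barcode in KO 2+3 held 30 hemoglobin UMIs of 55, and that in KO 5+6 held 35 of 54.

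**Figure D2:**
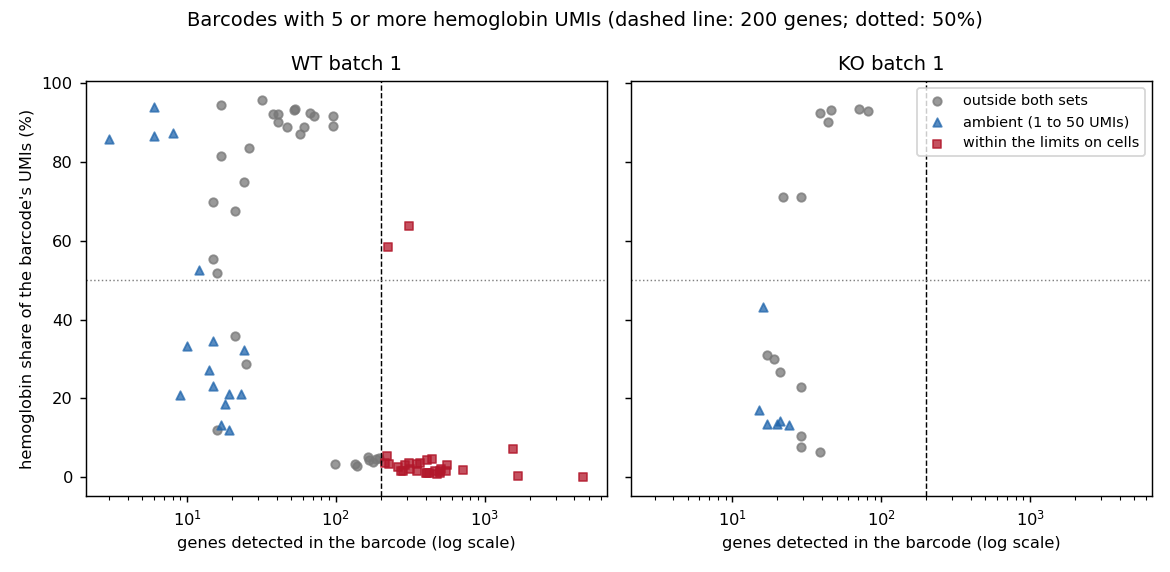
Each point is a barcode of batch 1 with 5 or more hemoglobin UMIs, placed by the genes detected in it (log axis) and the percent of its UMIs from the 4 genes, with symbols for cells, ambient and remaining barcodes. Most barcodes with 50% or more hemoglobin lie left of the dashed line at 200 genes, and 2 WT barcodes lie right of it.

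Only 2 of the 26 WT barcodes and none of the 7 KO barcodes passed the limits on cells, and 24 and 7 had fewer than 200 genes. Without them, 3522 hemoglobin UMIs remained in WT and 1593 in KO, or 392 and 192 CPM. The level over all barcodes was 2.30-fold higher in WT than in KO with these barcodes and 2.05-fold higher without them. These ratios compare 1 library with 1 and have no replicate check.

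These barcodes also held RNAs of other red cell genes. Of the 28 red cell genes found in the files from a list of 30, 14 had a UMI in the WT barcodes and 10 in the KO barcodes. They summed to 180 of 2626 UMIs that were not hemoglobin in WT and 48 of 682 in KO, or 68545 and 70381 CPM of the UMIs that were not hemoglobin, against 339 and 303 CPM in ambient barcodes and 675 and 709 in cells. Alas2, the first enzyme of heme synthesis in erythroid cells, had 50 UMIs in the WT and 15 in the KO barcodes, or 19040 and 21994 CPM, against 4.07 and 8.86 CPM in ambient barcodes. In the WT barcodes Mkrn1 had 31 UMIs and Bpgm, which makes the 2,3-bisphosphoglycerate of red cells, 13. Klf1 and Gata1, erythroid transcription factors, had 0 UMIs in the barcodes of both libraries, which allows up to 1142 CPM in WT and 4399 CPM in KO.

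None of 12 platelet genes had a UMI in the barcodes rich in hemoglobin. The same limits of 1142 and 4399 CPM lie above the 116 and 103 CPM of these genes in the ambient barcodes of batch 1, so that a difference was not detectable at this depth. Of 10 genes that clear hemoglobin or store its iron, 4 had UMIs in each library's barcodes, 73 in WT and 31 in KO. Ftl1, the ferritin light chain, had 45 of the WT UMIs. The genes with the most UMIs apart from the members were, chosen after their values were seen, Gm42418 (634 in WT, 209 in KO), Cmss1 (102 and 32), Camk1d (79 and 28) and Sec61g (58 and 15). Gm42418 and Cmss1 were also leading ambient genes, at 336150 and 64557 CPM in WT, above their 241430 and 38842 CPM here. The globin genes of embryonic and minor kinds were near absent, with 9 UMIs of Hbb-y, 6 each of Hbb-bh1 and Hba-x, 5 of Hbq1b, 3 of Hbb-bh2 and 1 of Hbq1a in the whole series. Hbb-bh0 was not in the gene list used.

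Hemoglobin level differed with the size of the barcode. In the batch 1 WT library it was 1612 to 2528 CPM in the 4 bins of 1 to 50 UMIs, 49663 CPM among barcodes of over 1000 to 2000 UMIs and 16.9 CPM above 5000 UMIs. The KO library had 477 to 1162 CPM up to 50 UMIs, 17068 CPM at over 1000 to 2000 UMIs and 6.27 CPM above 5000. In batch 2 the summed level was highest at 11 to 20 UMIs, at 69.7 CPM, and was 0.825 CPM at over 1000 to 2000 UMIs. The largest barcodes of batch 1, most of them tumor- or mesenchyme-like cells, thus had the lowest level. In batch 2 the 32 barcodes above 5000 UMIs held 0 hemoglobin UMIs, which allows up to 17.1 CPM and so sets no order.

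**Figure D3:**
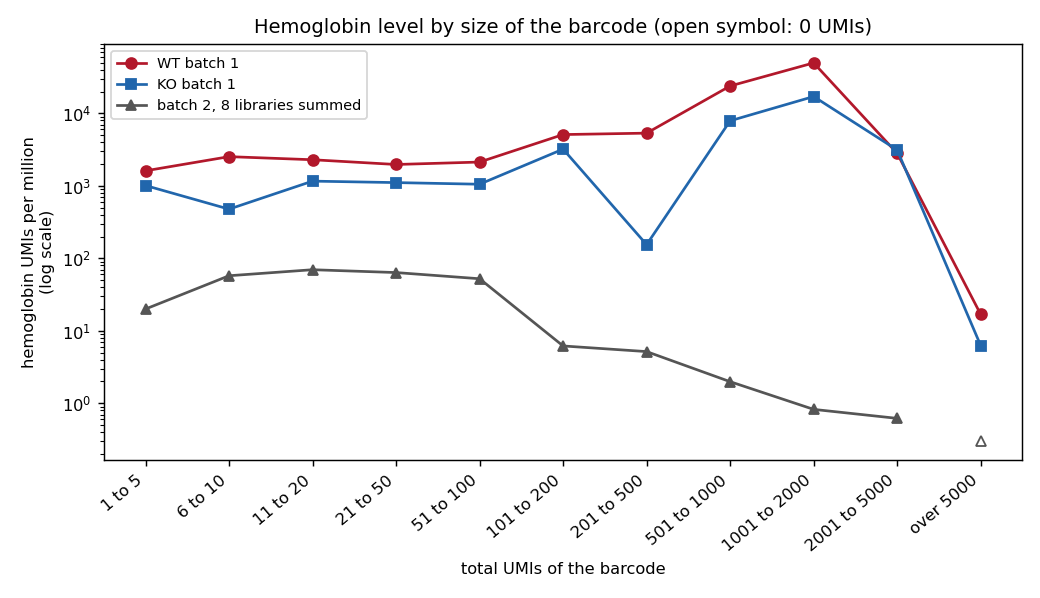
Hemoglobin CPM (log axis) in barcodes binned by their total UMIs, for the WT and KO libraries of batch 1 and the 8 libraries of batch 2 summed. In batch 1 the level peaks at over 1000 to 2000 UMIs, at 49663 and 17068 CPM, and in batch 2 no bin shows such a peak.

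At the limits used, barcodes of batch 1 with at least 150 but under 200 genes held 60 hemoglobin UMIs, or 2052 CPM, and those with at least 200 but under 250 genes held 443, or 17703 CPM. Of the 60, 58 were in WT and 2 in KO. Of the 443, 440 were in WT (28945 CPM) and 3 in KO (305 CPM), and 1 WT cell held 400 of them. Barcodes with 41 to 50 UMIs were at 1139 CPM and those with 51 to 60 UMIs at 1164. In batch 2 the 4 values were 8.06, 2.85, 45.9 and 136 CPM. Of the 91 hemoglobin UMIs behind the last value, 30 were in 1 barcode of KO 2+3 and 35 in 1 barcode of KO 5+6.

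Few cells carried a hemoglobin UMI. In the batch 1 WT library 143 of 1194 cells did (12.0%, 95% exact binomial interval 10.2 to 14.0), 100 of them with a single UMI. In the KO library 54 of 968 cells did (5.58%, 4.22 to 7.22), none with more than 3. In batch 2, 3 to 10 cells per library did, or 0.0359% to 0.113%, at a lower median depth. The 3 highest cells of the batch 1 WT library held 791, 400 and 332 hemoglobin UMIs, 74.511% of its 2044, and without them its level in cells was 70.8 CPM in place of 278.

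Cells of batch 1 were clustered without the 4 genes, and clusters were named from marker genes. Tumor- or mesenchyme-like cells held 16.0 CPM in WT (95% exact Poisson interval 13.0 to 19.5, 97 UMIs in 579 cells) and 5.76 in KO (3.89 to 8.22, 30 UMIs in 390 cells). Their share with a hemoglobin UMI was 14.5% in WT and 6.92% in KO at median depths of 10897 and 13210 UMIs. Thinned to 500 UMIs per cell, it was 0.346% in WT (2 of 578 cells) and 0.514% in KO (2 of 389 cells), too few cells to give a direction. Myeloid-like cells held 404 CPM in WT (371 UMIs, 332 of them in 1 cell of 4552 UMIs and 1542 genes) and 19.2 in KO (11.7 to 29.6), and 6.47% and 5.43% of them had a UMI, at median depths of 2459 and 2648. Thinned to 500 UMIs, 1.497% and 1.462% did. T-like cells held 11.9 and 16.0 CPM, B-like cells 30.6 and 37.5, and dendritic-like cells 72.8 and 23.4, each from 1 to 4 UMIs. A low level was present in every named class, and whether it was background or expression was not tested.

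**Figure D4:**
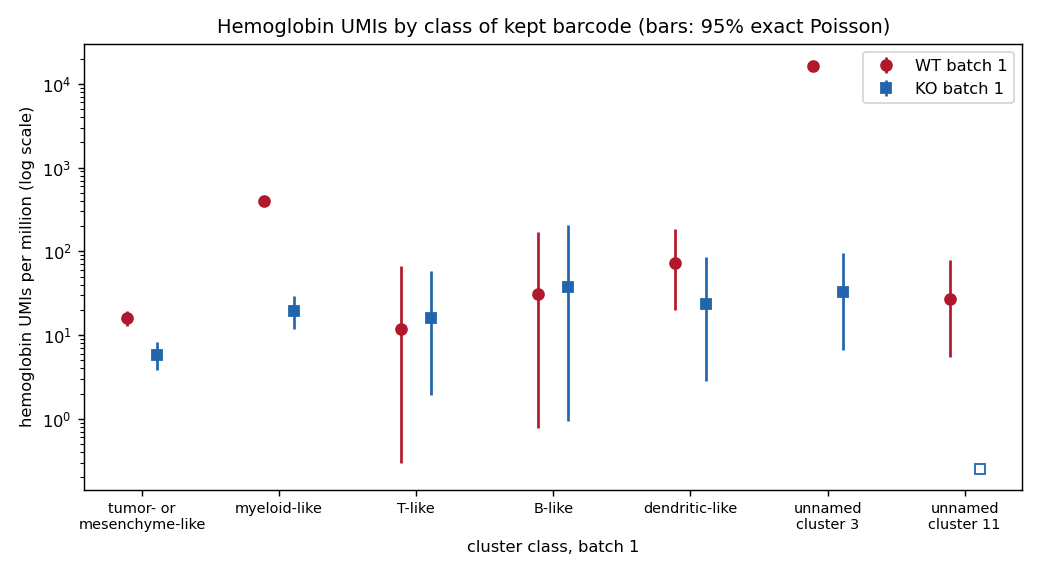
Hemoglobin CPM (log axis) in classes of batch 1 cells, with 95% exact Poisson intervals, for the WT and KO libraries. The unnamed cluster of low UMI counts stands at 16273 CPM in WT, and the named classes other than myeloid-like cells of WT lie between 5.76 and 72.8 CPM.

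Most hemoglobin of the WT cells lay in 1 cluster of low UMI counts that was left without a name. Its 135 WT cells, at a median of 538 UMIs, held 1567 hemoglobin UMIs, or 16273 CPM (15477 to 17099), while its 92 KO cells, at a median of 488 UMIs, held 3, or 32.6 CPM (6.72 to 95.3). Of 27 WT cells with 5 to 36 hemoglobin UMIs, 25 were in this cluster and 20 carried all 4 genes. Both WT cells with 50% or more hemoglobin were in it too, with 791 of 1243 and 400 of 684 UMIs. The cluster held cells of both libraries, but its hemoglobin came almost entirely from the WT library. No doublet caller was run, so that barcodes holding a red cell and another cell were not separated. The 38 cells of a cluster with fibroblast, pericyte and endothelial markers together held 3 hemoglobin UMIs in WT and 0 in KO, which allows up to 33.5 CPM in KO. In batch 2 none of the 11 clusters could be named, and the cells held 3 to 17 hemoglobin UMIs per library.

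Batches were compared across all genes with edgeR's quasi-likelihood test on UMIs summed per library, with the genotype in the model and Benjamini-Hochberg adjustment over all genes tested. In ambient barcodes all 4 members were lower in batch 2, by log2 fold changes of -6.80 (SE 0.36) for Hbb-bs, -7.24 (SE 0.38) for Hbb-bt, -6.20 (SE 0.34) for Hba-a1 and -6.19 (SE 0.33) for Hba-a2, with adjusted p from 2.0e-13 to 3.3e-13. These are folds of 111, 151, 73.5 and 73.1, beside a median log2 fold change of 0.39 over 16435 genes, of which 24.0% were lower in batch 2. The size of these folds depended on the TMM normalization. With raw library sizes the log2 fold changes were smaller, at -5.02 for Hbb-bs, -5.48 for Hbb-bt, -4.43 for Hba-a1 and -4.43 for Hba-a2. The 4 members ranked 13th to 27th from the lowest. In cells Hbb-bs (-6.27, SE 0.48, adjusted p = 6.7e-09) and Hba-a1 (-5.27, SE 0.56, adjusted p = 3.4e-07) were lower, beside a median of -0.09 over 14294 genes, of which 40.7% were lower. Hbb-bt and Hba-a2 did not pass the filter on low counts in cells. Hbb-bs and Hba-a1 passed it through their batch 1 levels, and neither passed in the fit of batch 2 only. Cells of batch 2 held 0.144 to 1.13 CPM of Hbb-bs and 0.262 to 0.961 CPM of Hba-a1. The calls of these genes in cells thus give no support apart from their batch 1 level. Without the batch 1 WT library, the value for Hba-a1 was -1.54 with an adjusted p of 0.0536, and that for Hbb-bs was -3.25.

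Many other genes differed between the batches, and in cells the difference varied with transcript length. There the median log2 fold change was -1.17 over 1063 genes whose longest transcript was under 1000 bases, as those of the members are. It was -1.32 over 2380 genes of at least 1000 but under 2000 bases, -0.32 over 5587 genes of at least 2000 but under 4000 bases and 0.57 over 5250 genes of 4000 bases or more. The shares of genes called lower were 53.2%, 63.8%, 45.3% and 22.8%, so that the lowest median was not in the shortest class. In ambient barcodes the same medians were 1.37 over 1557 genes and 0.44 over 5794 genes, with 0.13 and 0.14 for the lengths between, and 25.4% and 14.4% were called lower. Of the genes under 1000 bases, 12 in ambient barcodes and 27 in cells had a lower value than Hbb-bs. The other lists were mixed. All 9 genes of hemoglobin clearance and iron storage that were tested in cells were lower in batch 2, with a median of -2.81, among them Ftl1 (-5.37) and Hmox1, the enzyme that breaks down heme (-1.39). Of 15 red cell genes tested in cells, 8 were lower and 3 higher, with a median of -0.77, where 40.7% of all genes were lower. In ambient barcodes 6 of 21 red cell genes were lower and 3 higher, and the list summed to 303 to 339 CPM in batch 1 and 499 to 612 CPM in batch 2. Alas2 in cells was at 0.63 with an adjusted p of 0.13. Pf4, the 1 platelet gene tested in cells and also expressed by macrophages, was lower by -7.99, and 4 of 7 endothelial genes were lower, with a median of -1.16. What was done batch by batch cannot be told apart, and the part of transcript length in the members' difference was not tested.

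WT and KO tumors were compared with the batch in the model. In ambient barcodes the log2 fold changes (KO over WT) were -0.30 (SE 0.36) for Hbb-bs, -0.30 (SE 0.46) for Hbb-bt, -0.32 (SE 0.35) for Hba-a1 and -0.59 (SE 0.35) for Hba-a2, with adjusted p of 0.57, 0.67, 0.53 and 0.25. None of 16435 genes was called by edgeR (0.0%), although 4746 had an unadjusted p under 0.05 and DESeq2 called 747. The median over all genes was 0.03. The direction for Hbb-bt turned to 0.17 under DESeq2. Of the red cell list 21 genes were tested and 0 called, with a median of -0.05.

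In cells Hbb-bs was at -3.12 (SE 0.67, adjusted p = 0.40) and Hba-a1 at -2.82 (SE 0.78, adjusted p = 0.42), the lowest and second lowest log2 fold changes of 14294 genes, neither called. No gene was called by edgeR (0.0%), with 1318 at an unadjusted p under 0.05 and 2 called by DESeq2. Without the batch 1 WT library the values were -0.36 and -0.02, and without the batch 1 KO library they were -0.36 and -0.02 too, since either omission leaves no pair in that batch. Without KO 2+3 the adjusted p of Hbb-bs was 0.033, and without both pooled KO libraries it was 0.014 at -4.06. The fitted value for cells thus rested on the pair of libraries of batch 1. The exact two-sided permutation test of the Hbb-bs level, with labels permuted within batch, gave a mean difference (KO minus WT) of -23.3 CPM in cells (p = 0.357) and -91.8 in ambient barcodes (p = 0.643), where the smallest p possible was 0.0143. Within batch 2 alone the same exact permutation test gave differences of -0.124 CPM in cells (p = 0.714) and 3.04 CPM in ambient barcodes (p = 0.743). Neither difference exceeded the spread between libraries.

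The WT and KO difference in cells was also set between the batches, in a model with a batch by genotype term chosen after seeing the data. The log2 fold change of KO over WT was higher in batch 2 than in batch 1 by 4.16 (SE 0.77, adjusted p = 0.15) for Hbb-bs, 7.66 (SE 1.69, adjusted p = 0.43) for Hbb-bt, 5.15 (SE 0.73, adjusted p = 0.037) for Hba-a1 and 5.33 (SE 1.40, adjusted p = 0.72) for Hba-a2. Hba-a1 was 1 of 2 genes called among 15143 (0.0132%). Hbb-bt and Hba-a2, which failed the filter in the fit without this term, passed it here. Their cells held 306 and 387 UMIs in WT of batch 1, against 2 and 7 in KO. All 4 values had the same sign, but they rest on the batch 1 WT library, where 3 cells held 74.511% of the hemoglobin UMIs. The shared sign is thus no separate support. The batch 1 side of that term is 1 library against 1, assumed to vary like those of batch 2, so that it has no replicate check of its own. In ambient barcodes none of 17719 genes was called (0.0%), with 912 at an unadjusted p under 0.05.

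**Figure D5:**
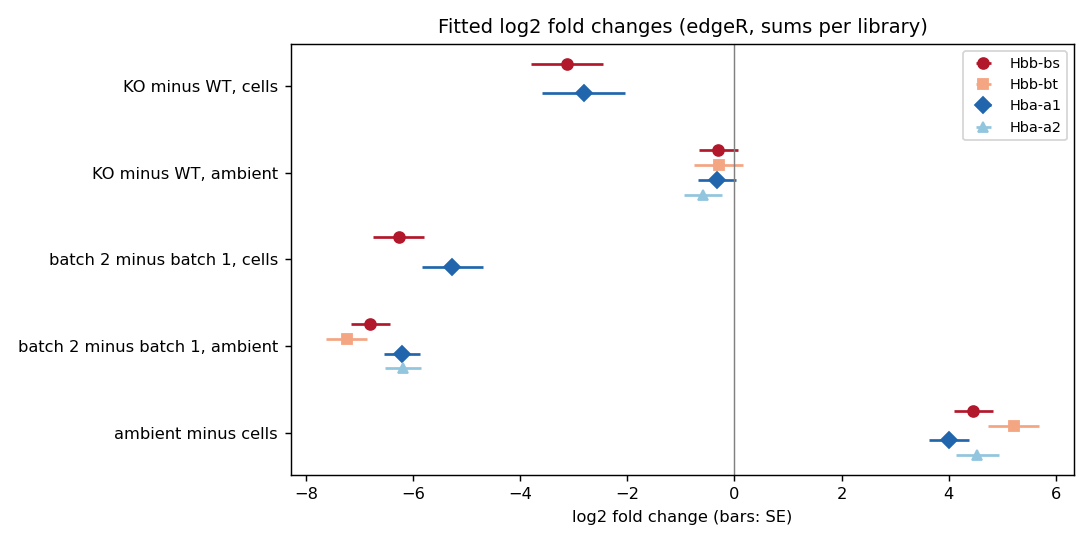
Fitted log2 fold changes of the hemoglobin genes with their standard errors in 5 comparisons. In cells only Hbb-bs and Hba-a1 passed the filter on low counts, the batch differences lie between -7.24 and -5.27, and the WT and KO differences in ambient barcodes lie within 0.6 of 0.

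Ambient barcodes held more hemoglobin than cells of the same library. With each library as a block, the 4 members were higher in ambient barcodes by log2 fold changes of 4.46 (Hbb-bs, SE 0.37), 5.21 (Hbb-bt, SE 0.47), 4.001 (Hba-a1, SE 0.37) and 4.54 (Hba-a2, SE 0.41), with adjusted p from 1.5e-17 to 1.6e-15. Of 21663 genes 48.4% were higher in ambient barcodes, and the median over all genes was 0.42. For genes under 1000 bases that median was 2.51. As a share of the ambient level, the level of the 4 genes in cells was 13.9% in the batch 1 WT library, 0.795% in the batch 1 KO library and 1.32% to 9.98% in batch 2. The red cell list was mixed, with 16 of 25 genes higher in ambient barcodes, among them Slc4a1, the anion exchanger of the red cell membrane (2.84), and 6 lower. All 7 platelet genes tested were higher, with a median of 2.84.

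The question whether hemoglobin RNA followed vessel content was put to the 8 libraries of batch 2, since batch 1 formed a cluster of its own. Pecam1 gave the most UMIs of the endothelial markers in cells of batch 2, 1059, and Egfl7, the next, gave 342. In batch 1 Pecam1 was also a marker of clusters of myeloid-like, T-like and B-like cells. The summed markers are thus not a measure of vessels alone. The endothelial markers in cells were 25.3 to 32.9 CPM in WT and 31.7 to 50.1 in KO. Against them, Hbb-bs in ambient barcodes gave Pearson's r of 0.0035 (p = 0.994) and Spearman's rho of 0.214 (p = 0.619), and Hbb-bs in cells gave r of 0.112 (p = 0.780) and rho of 0.0952 (p = 0.840), by exact permutation with n = 8. Adjusted over the 2 relations the p for r was 0.994 for both and that for rho 0.840 for both. Without KO 2+3 and KO 4, the 2 libraries farthest from the median of the markers, r was 0.446 and -0.675. No relation was detectable with these libraries. KO 2+3, with the most endothelial marker RNA at 50.1 CPM, had 13.6 CPM of Hbb-bs in ambient barcodes, and KO 5+6, with 37.8, had 49.5.

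Among the genes whose ambient log2 level was most like that of Hbb-bs over the 8 libraries of batch 2 were Prkd3 (r = 0.976), Cabp1 (0.956), BC107364 (0.936) and 9330182O14Rik (0.934), out of 16607 genes with 50 or more UMIs. Hba-a1 was 7th at 0.930, Hbb-bt 42nd at 0.855 and Hba-a2 187th at 0.768. In cells they were Tmx4 (0.939), Trim59 (0.926), Gm12089, Gm44503 and Dnpep. Hbb-bs itself had 33 UMIs there, 1 to 7 per library, so that the coefficients in cells rest on very low counts. The other members also had under 50 UMIs there. These coefficients share 8 libraries and their depth and are given as a description.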

How the data were processed

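UMI counts per gene and barcode, deposited as unfiltered matrices, were made by the authors with Cell Ranger 7.1.0 on mm10, according to the submitters' processing notes. Columns of another kind held gene names and barcodes, as deposited, and no column of values was left unmapped. The 4 genes and all gene lists were chosen with earlier results of these data known. Counts were summed per library over cells, ambient and other barcodes. CPM is counts-per-million of the set's summed UMIs, with 95% exact Poisson intervals.

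Sums were tested in R 4.3.3 with edgeR 4.0.16 (TMM, filterByExpr, quasi-likelihood, Benjamini-Hochberg, called at an adjusted p under 0.05), with DESeq2 1.42.0 as an alternative. Other steps used Python 3.11.15 and scipy 1.17.1. The tests were checked on simulated data.

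Cells were clustered within each batch, since clusters over all libraries separated by batch (a choice made after seeing the data), with scanpy 1.11.5 and leidenalg 0.10.2 on 2000 variable genes and 30 principal components, without the 4 genes and Actb. A class needed 3 markers at 2-fold or more and in 2% of cells, with any of them among the 100 leading genes. The tumor- or mesenchyme-like class needed 3 such markers against the immune clusters, with no demand on leading genes. Clusters that matched no class or several stayed unnamed. So did clusters of low UMI counts, unless a marker was at the top of their leading genes. No doublet caller was run. Genes named were the members, the listed genes and, by rule, the 5 most like Hbb-bs, and some of these are not reported here. Libraries were named by separate tumors in the labels. The authors' own comparisons were not used.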

Additional observations from a re-analysis of the deposited data

Results flagged for a closer look

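Single libraries stood apart from the others of their group in 15 of the 32 combinations of a gene, a set of barcodes and a group that were checked. Of these, 13 are the lone batch 1 library in a group of both batches and restate the difference between batches in 4 genes that moved together, so that the rate of about 1 in 20 that chance gives is no yardstick for them. The measure is the gap to the nearest library over the range of the group. The batch 1 WT library stood apart in ambient barcodes for Hbb-bs (0.973), Hbb-bt (0.984), Hba-a1 (0.969) and Hba-a2 (0.973), and in cells for Hbb-bs (0.994), Hbb-bt (0.994), Hba-a1 (0.989) and Hba-a2 (0.983). The batch 1 KO library stood apart in ambient barcodes for Hbb-bs (0.925), Hbb-bt (0.905), Hba-a1 (0.884) and Hba-a2 (0.881), and in cells for Hbb-bs (0.818). Within batch 2, Hbb-bt in cells put WT 1 apart among WT (1.0, 2 UMIs against 0) and KO 1 apart among KO (0.963, 0 UMIs against 1 each).

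For Hba-a1 the log2 fold change of KO over WT in cells was higher by 5.15 in batch 2 than in batch 1 in a test of that difference, and the same term was 4.16 for Hbb-bs, 7.66 for Hbb-bt and 5.33 for Hba-a2, none of these 3 called. Batch 1 gave 1 library of each genotype, so that its side has no replicate check. Barcodes of over 50 UMIs outside the limits on cells, which no comparison between groups used, held 27255 hemoglobin UMIs over all libraries, 27067 of them in batch 1.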

How the results depend on the processing

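Of 286 refits of the members' log2 fold changes, 275 kept their direction and side of the threshold. Refits in which a member did not pass the filter are not among them, and the size of a change was not weighed. Hbb-bs for WT against KO in cells thus counted as kept when it went from -3.12 to -0.36 without the batch 1 WT library. For WT against KO in cells, DESeq2 called 2 genes, no filter on low counts 241 and the fit without pooled KO libraries 1, and leaving out single libraries gave 0 to 1. Hbb-bs there was at -3.13 without the filter (adjusted p = 5.3e-14) and -4.06 without pooled KO libraries, and from -3.80 to -0.36 without single libraries, and Hba-a1 was at -2.87 without the filter. In ambient barcodes the calls were 747 by DESeq2, 1427 without the filter, 774 in batch 2 only, 422 in barcodes of 1 to 10 UMIs and 0 to 7043 without single libraries (7043 without WT 3, 1078 without WT and 1027 without KO of batch 1). Hbb-bt turned to 0.17 under DESeq2, to 0.29 at 51 to 100 UMIs, and ranged from -0.74 to 0.57 without single libraries (-0.58 without WT 3). At 51 to 100 UMIs Hba-a1 was at 0.42 and Hba-a2 at 0.72. With raw library sizes, the batch comparison in ambient barcodes called 13422 genes, 1089 of them lower, in place of 4029 higher and 3948 lower, and the median of all genes moved from 0.39 to 2.13, and leaving out single libraries called 3768 to 8437. Ambient barcodes against cells gave a median of 1.23 with raw sizes and 2.46 under DESeq2, with 11650 and 14413 genes higher and 4117 and 4575 lower, in place of 10494 and 8620. Batches in cells had a median of 0.58 under DESeq2. Hba-a1 between batches in cells ranged from -6.68 to -1.54. The Hbb-bs differences in CPM were 3.04 in ambient barcodes of batch 2 only, and -29.4 to 0.873 in cells and -193 to 104 in ambient barcodes without single libraries. Its correlation with endothelial RNA was -0.675 in cells without the 2 farthest libraries, and -0.176 to 0.286 (ambient, -0.154 without WT 4) and -0.503 to 0.368 (cells) without single libraries. Thinned to 500 UMIs, the share with hemoglobin was 0.0% in T-like KO and dendritic-like WT cells, 1.462% and 1.497% in myeloid-like KO and WT cells and 0.514% and 0.346% in tumor- or mesenchyme-like KO and WT cells. Without the 3 highest cells the batch 1 WT level was 70.8 CPM. The cause of these shifts was not tested. The terms for batch by genotype, single-library omissions for CPM and correlations, batch 2 only and log2(CPM + 1) for CPM, omission of hemoglobin-rich barcodes between batches and of the 3 highest cells were chosen after seeing the data.

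The replicate numbers of batch 2 did not pair the samples, since deviations of same-numbered libraries correlated at -0.235, 0.195, -0.27 and 0.198 and 2 of 4 libraries correlated best with their own number. With the replicate block, Hbb-bs in cells was at -3.22 (edgeR, adjusted p = 0.23) with 0 genes called, and 3 genes were called in ambient barcodes.

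Depth limits the hemoglobin values of batch 2 cells, which rest on 3 to 17 UMIs per library. Batch 1 has 1 library per genotype, so that its WT and KO difference has no replicate.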
